A study of Rattus norvegicus with 16 samples.

Results

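The rows described here carry the symbols of cytosolic ribosomal proteins in a liver RNA-seq table. They were chosen by name: a symbol that begins with Rpl or Rps and a digit, or that is Rplp0, Rplp1 or Rplp2, without a hyphen and not of the Rps6k kinase family. A minimum mean level over the 16 libraries was also required, which fell between 8.12 and 15.3 normalized counts, the means of Rps10 below it and Rplp2 above it. Of 22587 rows in the table, 84 matched the name and 72 reached the minimum, 46 named for the large subunit and 26 for the small one. Normalized counts are reads divided by 1 scaling factor per library, and they are not divided by transcript length, so levels are compared between libraries and not between genes. The rule itself uses no difference between groups, but the set was chosen with earlier results of these data known. Shares and medians over these rows are therefore descriptions. The libraries came from livers of male rats, strain Wistar-Wyoto as the labels spell it, aged 13 weeks. Rats had a sham operation (SHAM) or both adrenal glands removed (ADREX), and then breathed air or ozone at 0.8 ppm for 4 hours, with 4 libraries in each of the 4 groups. Adrenalectomy removes the gland's cortex and medulla together, so glucocorticoids and adrenaline of adrenal origin are lost at once in both ADREX groups. Groups follow the library titles, because the treatment field of the labels gives ozone for all 8 ADREX libraries, against the titles and the stated design of the series.

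A cytosolic ribosome is built from a small subunit, which reads the mRNA, and a large subunit, which joins amino acids. Each subunit is a folded ribosomal RNA with its own set of proteins, named Rps for the small subunit and Rpl for the large one, and nearly every protein is present once per ribosome. The mRNAs of these proteins mostly begin with a cytosine followed by an unbroken run of pyrimidines, called the 5′ terminal oligopyrimidine element. The kinase complex mTORC1 and the RNA-binding protein Larp1 control translation of mRNAs with this element. In liver, ribosome production is tied to feeding, growth and regeneration.

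Of 79 core ribosomal protein genes listed for the mammalian ribosome, 62 were among the 72 rows. Another 3 encode ribosomal proteins under symbols outside the naming rule, among them Rpsa and Fau, and 4 fell under the minimum, among them Rpl7a, Rps4x and Rps10. The remaining 10, among them Rpl8, Rplp1, Rps19 and Rps27a, had no row under these symbols in the table used here and were not analysed. The other 10 rows are not core genes. They include the paralogs Rpl22l1, Rpl36al, Rpl7l1, Rpl10l, Rps27l and Rps4y2, a row that RefSeq classes as a pseudogene, Rps10l1, and Rps19bp1. Rps19bp1 matched by name alone: it encodes a nucleolar protein that binds Rps19 and is not part of the ribosome. The rows just inside the minimum were Rplp2, at a mean of 15.3 normalized counts, Rps4y2 at 16.8 and Rpl10l at 18.9. Outside it lay Rps10 at 8.12 and Rpl22l2 at 5.35.

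The start sites were read for the pyrimidine element. RefSeq promoter sequences of the rat build GRCr8, which is not the build rn6 that the authors used, were matched by symbol for 56 of the 72 rows. The windows below run from 12 bases before the annotated first base of the transcript to 17 bases after that base. Capitals mark the annotated first base and, where that base is a cytosine followed by at least 4 pyrimidines, the whole pyrimidine run. The first 4 were chosen because they hold the element, and the last 4 are members that differed between groups under ozone and do not hold it at the annotated base.
Rpl10 (chrX:157205838-157205867, plus strand): gcgtgggagcgtCTCTTTTCCTCTggcgcg
Rpl37a (chr9:81748079-81748108, plus strand): tgcccgttgcgtCTCTTCCTCTTCgggctt
Rpl14 (chr8:129163608-129163637, plus strand): cgggccctctccCTTCTCgctgagcgccgc
Rplp0 (chr12:46718373-46718402, minus strand): cgcaccgcacttCTCTCgccaggcgtcctc
Rpl4 (chr8:73566465-73566494, plus strand): gttcttccttttCctgtgggagcagccggg
Rpl27a (chr1:172974561-172974590, plus strand): gacttggtgggcTcctccctctttcttttc
Rpl13a (chr1:104748896-104748925, minus strand): cttcctttcctaGgcggctgccgaagatgg
Rpl11 (chr5:153560785-153560814, minus strand): gacttgaagcttGtttggtgctggggagca
In Rpl10 and Rpl37a the run was 12 bases long, the longest among the members. In Rpl4 and Rpl13a a pyrimidine stretch lay before the annotated base, and in Rpl27a one began at it with a thymine, so these did not count as holding the element.

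The element stood exactly at the annotated first base in 21 of 56 members, or 37.5%, against 2.63% of all 33469 RefSeq promoters of this build. With the first base allowed to lie up to 5 bases to either side, 57.1% of members and 17% of all promoters held it. The letters CTTCCG, searched on both strands of the 300 bases from 250 before the start to 50 after it, were in 55.4% of member promoters and 16.6% of all. The letters CTTTCC, also searched on both strands, were in 44.6% against 26.4%. Both sets of letters can overlap the pyrimidine runs. In Rpl34, Rpl37 and Rpl39, CTTCCG lay across the end of the run. The letters TATAAA were in 12.5% against 14.2%. Median GC content of the 300 bases was 56.2% in members and 51.7% over all promoters. Of the 72 rows, 69 matched a RefSeq symbol, and these lay on 18 chromosomes, with at most 13 on any of them.

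**Figure D1:**
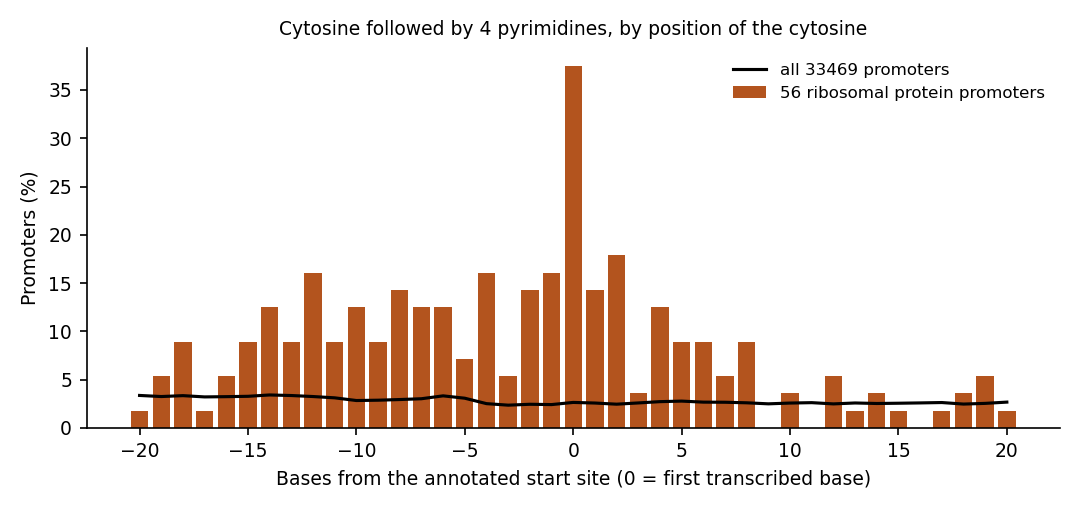
Share of promoters with a cytosine followed by 4 pyrimidines, by distance in bases of the cytosine from the annotated first base (0), for the 56 matched ribosomal protein promoters (bars) and all 33469 promoters (line). The bar at 0 reaches 37.5%, while the line is at 2.63% there.

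Many ribosomal protein genes have near-identical processed copies elsewhere in the genome, and several rows of the table divide one family's reads among copies. How the authors assigned reads that fit several places is not given in the sources used here, so the value of a single row is uncertain wherever a copy exists. Besides the 72 rows, 11 rows with a hyphen in the symbol (Rpl34-ps1 and the like) reached the same minimum. For 8 of them the parent symbol had a row, and in 5 of those the pseudogene row held more reads than the parent. These are values of rows, not corrected for length, and describe where reads were assigned. Rps4x, a small subunit protein gene, averaged 4.09 normalized counts, and Rps4x-ps9 averaged 2542, which is 621 times as much. Rps2, whose protein sits at the mRNA entry side of the small subunit, averaged 199.96 against 4510 for Rps2-ps6, a ratio of 22.6. For Rpl6 the values were 42.5 and 804 (ratio 18.9), for Rpl34 they were 215 and 826 (3.84), and for Rpl26 they were 163 and 352 (2.16). Rps15 showed the other order, with 259 against 232 for Rps15-ps2. Rpl38 had the same value as Rpl38-ps2, Rpl38-ps3 and an unnamed locus in every library, so these rows hold 1 measurement. Rplp2 was likewise identical to another unnamed locus. A further 3 pseudogene rows had no parent row: Rpl36a-ps2 (mean 1025), Rps27a-ps1 (1782) and Rps27a-ps12 (81.8).

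**Figure D2:**
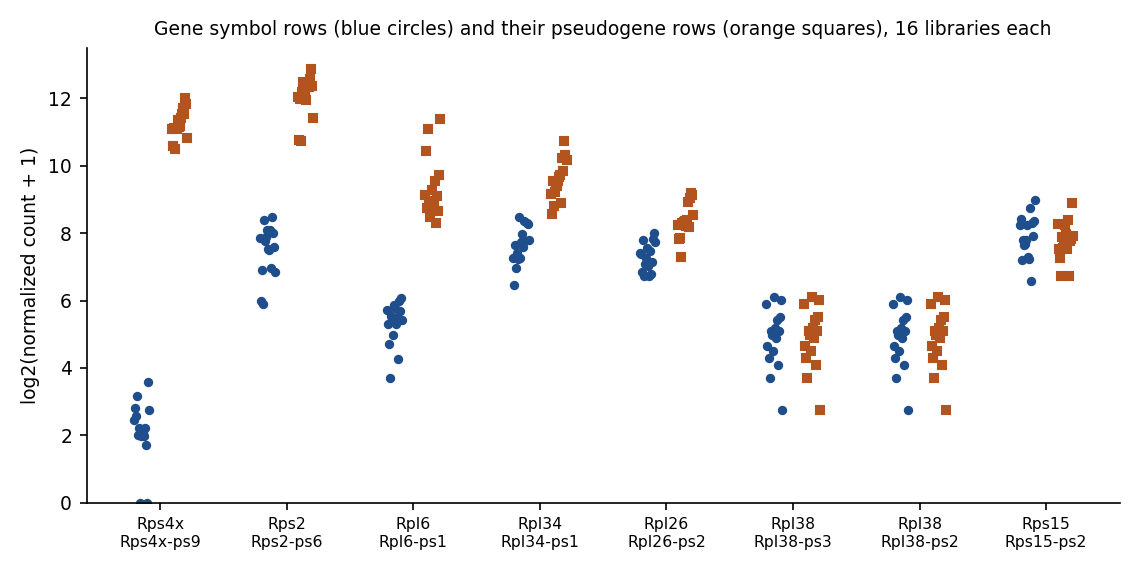
Level on a log2(normalized count + 1) scale in each of the 16 libraries for 8 pairs of a ribosomal protein symbol (blue circles) and its pseudogene row (orange squares). In the first 5 pairs the pseudogene row has the higher mean, and the Rpl38 pairs coincide point for point. SHAM air 4 shows the other order for Rpl26, at 223 normalized counts against 157 for Rpl26-ps2.

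Library depth, as whole reads recovered from the table, lay between 8372891 and 14096246. The labels do not say that libraries came from separate animals, so p-values measure the spread between libraries, which may be technical. All 12 hepatocyte markers listed, albumin among them, had reads in every library. Markers of neurons and oligodendrocytes, which liver parenchyma does not contain, were present too: 22 of 25 had reads in every library, and 3, Gad2 and Nrgn among them, were at 0 in some. Their summed level ranged from 44.5 to 852 RPM (reads scaled to a library total of 1000000) in SHAM air, 77.3 to 2959 in SHAM ozone, 277 to 1214 in ADREX air and 826 to 4748 in ADREX ozone. The 3 libraries richest in them were ADREX ozone 82 and 81 and SHAM ozone 18, and results are given without these 3 where this changed a count. The 12 Kupffer cell and macrophage markers, all with reads in every library, summed to 621 to 866, 668 to 956, 789 to 1585 and 794 to 1655 RPM in the same order of groups. Lymphocyte markers were sparse, with 7 of 14 at 0 reads in at least 1 library, among them Cd3d, Cd3g, Cd79a and Ms4a1. Their sum ranged from 28.5 to 57.4 RPM in SHAM and from 48.1 to 88.9 in ADREX libraries.

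The summed level of the 72 rows was highest in the adrenalectomized rats under ozone. It was 2948, 2668, 2300 and 2227 RPM in SHAM air libraries 1 to 4, and 2447, 2627, 2606 and 2672 RPM in SHAM ozone libraries 17 to 20. It was 2927, 3348, 3414 and 3100 RPM in ADREX air libraries 65 to 68, and 3510, 5046, 4221 and 4296 RPM in ADREX ozone libraries 81 to 84. All 4 ADREX ozone libraries lay above the other 12, and the ADREX air libraries overlapped SHAM air by a single library. Group means were 2536 ± 336 for SHAM air, 2588 ± 98.1 for SHAM ozone, 3197 ± 225 for ADREX air and 4268 ± 628 RPM for ADREX ozone (SD, n = 4). As a share of all reads, the members took from 0.223% to 0.505% of a library. Because the samples are bulk tissue, fewer cells of a type and less RNA per cell cannot be told apart. ADREX ozone 82 was highest both in this sum and in the neural markers. The log2 ratio of group means under ozone was 0.72, and 0.73 when the 3 libraries with the most neural reads were left out. The latter compared ADREX ozone 83 and 84 with SHAM ozone 17, 19 and 20. Their neural sums were 826 and 830 against 233, 611 and 77.3 RPM, so the groups still differed in these markers. The Kupffer and lymphocyte sums also reached their highest values in ADREX libraries, and their part in the result was not tested.

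Both subunits followed the same order of groups. Large subunit rows summed to 1962 ± 252, 2006 ± 81.4, 2494 ± 198 and 3314 ± 477 RPM in SHAM air, SHAM ozone, ADREX air and ADREX ozone, and small subunit rows to 573 ± 108, 582 ± 18.6, 703 ± 59.7 and 954 ± 163 RPM (SD, n = 4). The 11 pseudogene rows summed to 606 ± 125, 794 ± 63.5, 906 ± 106 and 1125 ± 283 RPM. Counted by rows instead of reads, the groups overlapped: 52 to 67 of the 72 rows were above their own mean over the 16 libraries in an ADREX ozone library. That number was 12 to 39 in SHAM air, 19 to 32 in SHAM ozone and 25 to 62 in ADREX air libraries, where library 67 held the 62 and the other 3 lay between 25 and 36, within the SHAM range. Without members and the 100 most abundant other genes in the denominator, the log2 ratio of ADREX to SHAM under ozone was 0.71.

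**Figure D3:**
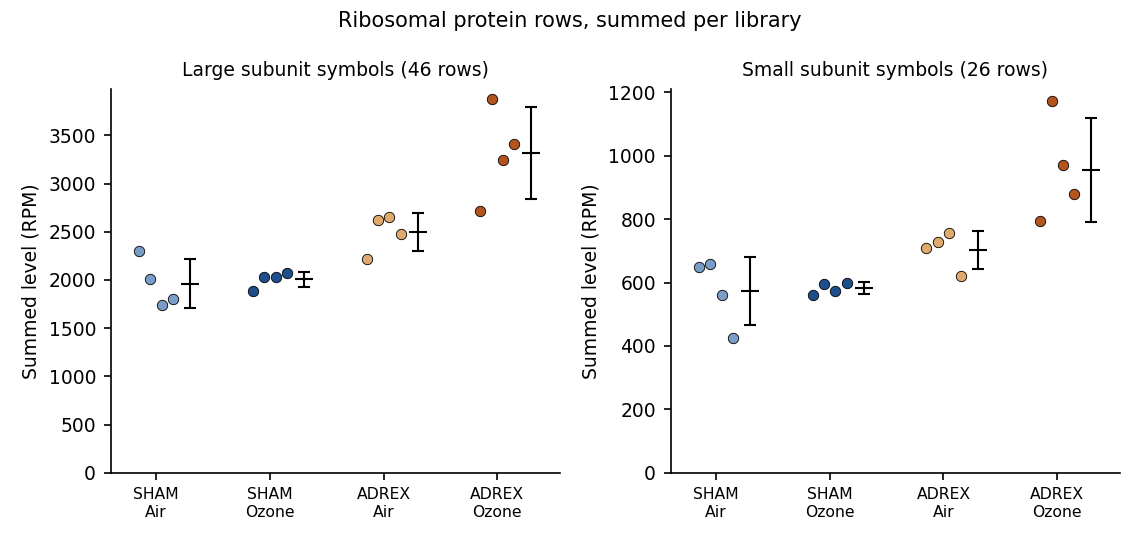
Summed level in RPM of the 46 large subunit rows (left) and the 26 small subunit rows (right) in each library (points) by group, with the group mean and SD (bars). In both panels the ADREX ozone libraries sit highest, with means of 3314 and 954 RPM.

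Adrenalectomized and sham-operated rats that breathed ozone were compared over 12788 genes with limma on log2(value + 1), and a gene was called at a Benjamini-Hochberg adjusted p under 0.05. In this comparison 13 of the 72 rows were called (18.1%), all higher in ADREX. Over all genes, 12.5% were called in either direction, 6.03% higher and 6.48% lower; with TMM scaling the last pair was 4.18% and 8.85%. The share of members called higher was thus 18.1% beside 6.03%, and none was called lower. Of the 13, 12 were large subunit rows and 1 was a small subunit row, Rps6. The median log2 change was 0.51 over the 72 rows and 0.11 over all genes, 63 of 72 rows lay above 0 (59.2% of all genes did), and 25 rows had an unadjusted p under 0.05 (31.2% of all genes). For 18 rows, or 25%, the 4 ADREX libraries lay above all 4 SHAM libraries, against 10.6% of all genes. The opposite order occurred in 0 rows, against 9.94% of all genes. On recovered reads edgeR called 10 rows, all higher, beside 12.4% of all genes (4.17% higher, 8.22% lower). DESeq2 called 15, all higher, beside 17.2%. The lowest adjusted p of these 15 was that of Rps29, whose call rests on a single library. Rps29 was 845 normalized counts in ADREX ozone 82 and 0 in the other 3 ADREX ozone and all 4 SHAM ozone libraries. When the 3 libraries with the most neural reads were left out, limma called 3 rows, Rpl7 and Rpl32 among them, beside 3.76% of all genes, at a median change of 0.61. That setting also had fewer libraries in both groups, so lost calls cannot be assigned to neural reads. With the neural sum as a covariate it called 19, beside 8.55%, at a median change of 0.64. Without SHAM ozone 17 or without ADREX ozone 82 alone it called 8.

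Among proteins of the core of the large subunit, Rpl3 and Rpl4 reach from the surface toward the catalytic centre and the exit tunnel. Rpl4 was 2540, 2891, 3957 and 2868 normalized counts in SHAM ozone libraries and 4711, 8607, 4991 and 5139 in ADREX ozone libraries. The groups did not overlap, and library 82 stood far above the other 3. The log2 change was 0.91 (SE 0.19, limma adjusted p = 0.00619). Rpl3 was 2514, 2701, 2437 and 2190 against 3811, 4673, 3513 and 4758 normalized counts. Every ADREX library was higher (log2 change 0.76, SE 0.21, limma adjusted p = 0.0264), and the call was lost in 7 of 27 alternatives, including the neural covariate. Rpl10, which joins the large subunit last, in the cytoplasm, was 3757, 3100, 4798 and 5001 against 5439, 6159, 7694 and 5973 normalized counts. Its ranges did not overlap but came close, and the change was 0.62 (SE 0.18, limma adjusted p = 0.0378). The Rpl10 call was among the least stable, lost in 12 of 27 alternatives.

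Rpl11 binds the 5S ribosomal RNA together with Rpl5, and both bind the p53 regulator Mdm2 when ribosome assembly fails. Rpl11 was 409, 462, 504 and 380 normalized counts in SHAM ozone and 743, 1180, 714 and 1182 in ADREX ozone libraries. Its groups were well apart, with a log2 change of 1.09 (SE 0.24, limma adjusted p = 0.0093). Rpl5 was 2603, 2355, 2380 and 2674 against 3392, 3004, 3929 and 5848. These groups did not overlap either, but Rpl5 was not called (log2 difference 0.65, SE 0.27, limma adjusted p = 0.115), except with array weights or with the neural covariate. Rpl5l1, a row named as like Rpl5, was 199, 168, 178 and 128 against 212, 295, 349 and 292 (log2 change 0.76, SE 0.22, limma adjusted p = 0.0368). The Rpl5l1 call was lost in 12 of 27 alternatives, including edgeR. Rpl23, another Mdm2-binding protein, was 704, 596, 456 and 647 against 762, 625, 882 and 515, with overlapping groups and a log2 difference of 0.20 (limma adjusted p = 0.584).

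Rpl13a, which can leave the ribosome to silence inflammatory mRNAs, had the largest fitted change of the 13 called rows. It was 178, 197, 163 and 226 normalized counts in SHAM ozone and 381, 709, 437 and 271 in ADREX ozone libraries. The groups did not overlap (log2 change 1.15, SE 0.27, limma adjusted p = 0.0133). Rpl24, at the face toward the small subunit, was 578, 550, 1016 and 817 against 929, 1983, 1333 and 2467. It was the called row whose groups overlapped, by library 81, with a log2 change of 1.13 (SE 0.30, limma adjusted p = 0.0227), and it lost the call in 5 of 27 alternatives. Rplp0, the base of the stalk that recruits translation factors, was 1626, 1488, 1583 and 1711 against 2396, 2092, 2367 and 2117. It had the smallest change of the 13 (0.48, SE 0.12, limma adjusted p = 0.0163) and also the smallest within-group spread of all 72 rows (SD 0.12 on the log2 scale). The Rplp0 call was lost in 3 of 27 alternatives: TMM, edgeR and the fit without the 3 neural-rich libraries.

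The remaining called rows of the large subunit were Rpl7, Rpl32, Rpl27a and Rpl14. Rpl7 was 1605, 1470, 1602 and 1680 normalized counts in SHAM ozone and 2283, 2885, 2778 and 2750 in ADREX ozone libraries. It had the lowest adjusted p of the members (log2 change 0.75, SE 0.14, limma adjusted p = 0.00332). Rpl32 was 814, 993, 1192 and 969 against 1435, 1884, 1549 and 2883 (log2 change 0.92, SE 0.21, limma adjusted p = 0.0101). Rpl7 and Rpl32 passed in all 27 alternatives run, which include each library left out in turn and the 3 neural-rich ones left out together. Rpl27a was 483, 455, 452 and 494 against 842, 852, 833 and 959, a tight pair of groups (log2 change 0.88, SE 0.20, limma adjusted p = 0.0104). Rpl14, named for the size of its called change, was 109, 97.9, 109 and 84.1 against 134, 165, 195 and 181 (log2 change 0.75, SE 0.19, limma adjusted p = 0.0185). Rpl4, Rpl11, Rpl13a and Rpl27a each lost the call in 1 of 27 alternatives, that without the 3 libraries. Rpl14 lost it in 3 of 27, that setting among them.

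Rps6, the small subunit protein that S6 kinases phosphorylate downstream of mTORC1, was the small subunit row called. It was 1380, 1365, 1585 and 1429 normalized counts in SHAM ozone and 2123, 3183, 2850 and 1838 in ADREX ozone libraries. The groups did not overlap (log2 change 0.76, SE 0.22, limma adjusted p = 0.0341), and the call was lost in 9 of 27 alternatives. Over the 26 small subunit rows the median change was 0.60, against 0.46 over the 46 large subunit rows, and 25 and 38 rows respectively lay above 0. The small subunit rows thus had fewer calls but no lower median. Why the calls differed was not tested. Rps3, at the mRNA entry, was an uncalled row close to the threshold, and other uncalled rows lay further from it. Its values were 646, 773, 595 and 683 against 1086, 1072, 996 and 1541, and its log2 difference was 0.78. Rps3 was not called (limma adjusted p = 0.0507), though some alternatives, array weights and the neural covariate among them, called it, and was named after its values were seen. Rps25, which viral internal ribosome entry sites need, was 86.1, 69.7, 122 and 48.7 against 97.2, 184, 128 and 216, with overlapping groups (log2 difference 0.94, limma adjusted p = 0.0808).

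**Figure D4:**
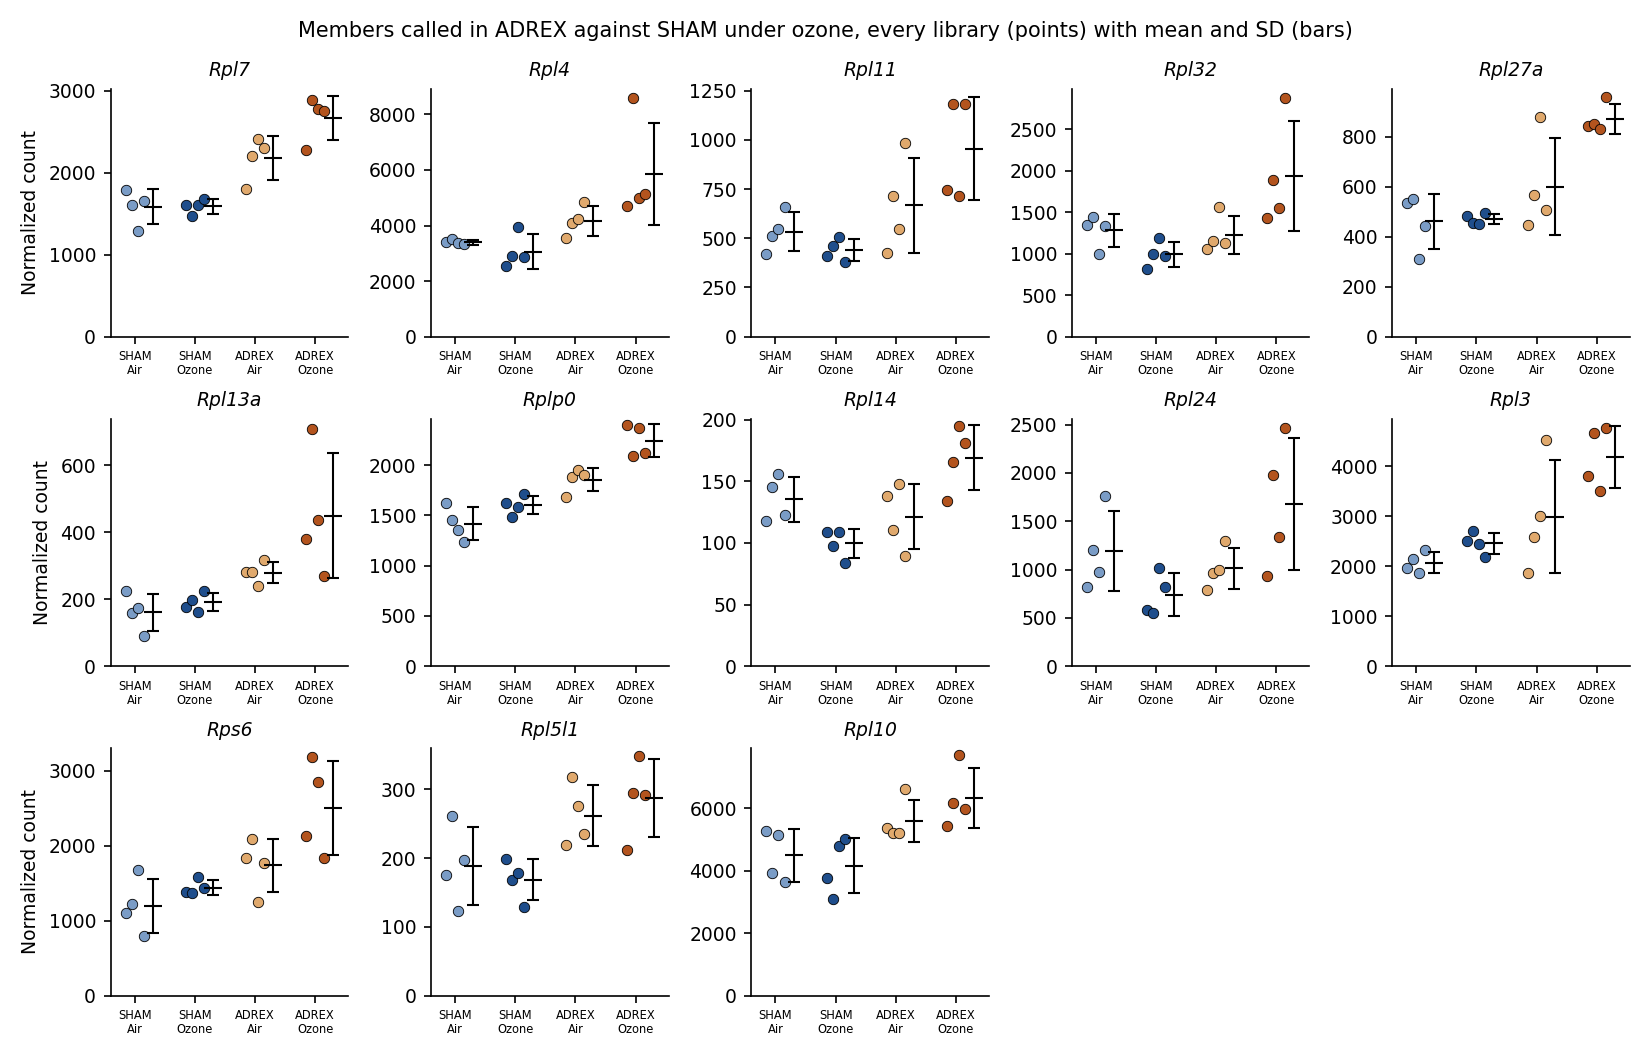
Normalized counts of the 13 rows called in ADREX against SHAM under ozone, in each of the 16 libraries (points) by group, with group mean and SD (bars); each panel has its own axis from 0. In every panel but that of Rpl24 the 4 ADREX ozone points lie above the 4 SHAM ozone points.

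In air, adrenalectomized rats differed from sham-operated rats in 2 of the 72 rows (2.78%), both higher in ADREX, and Rpl10a was among them. Over all genes, 3.53% were called in either direction and 1.49% higher, so the share of members was near the background. The median log2 change was 0.26 over the 72 rows and 0.04 over all genes, 48 rows lay above 0 (54.1% of all genes), and 21 had an unadjusted p under 0.05 (20.2%). That median was 0.10 without ADREX air 67 and 0.17 without SHAM air 4. Rpl10a, the protein of the stalk that helps spent tRNA leave, was 50.6, 22.8, 30 and 14 normalized counts in SHAM air and 70.6, 44.5, 71.5 and 125 in ADREX air libraries. SHAM air 1 reached into the range of the other group (log2 change 1.42, SE 0.37, limma adjusted p = 0.0428). These calls rested on single libraries. Leaving out SHAM air 2, SHAM air 4 or ADREX air 68 left 0 calls, and leaving out SHAM air 1 or SHAM air 3 gave 5. Leaving out ADREX air 66 or 67, ADREX ozone 81, or any SHAM ozone library gave 1, also where the library is in neither group and bears only on the shared spread, and leaving out ADREX ozone 84 gave 3. Other settings gave 0 (the neural sum as a covariate, or the comparison alone), 1 (edgeR, beside 2.96% of all genes) or 6 (DESeq2, beside 6.52%). In 5 rows, Rpl4, Rpl7, Rpl13a, Rpl23a and Rplp0, or 6.94%, every ADREX library lay above every SHAM library, beside 4.24% of all genes. The opposite order occurred in 0 rows, beside 5.03%. Of those 5, Rpl4, Rpl7, Rpl13a and Rplp0 were also among the 13 called under ozone, a comparison of different libraries. The share of all genes that did both was not computed. The calls under ozone also use a spread estimated over all libraries, those in air included.

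Ozone against air was compared within each surgery group. In SHAM rats limma called 0 of 72 rows, beside 1.58% of all genes, with 12 rows at an unadjusted p under 0.05 (18.4% of all genes). By edgeR 0 were called (beside 1.38%) and by DESeq2 1, Rps29 (beside 4.22%). The median log2 change was 0.09 (0.01 over all genes), and 0.04 to 0.17 with each library left out, with the lowest values without SHAM ozone 20 or SHAM air 4 and the highest without SHAM air 1 or 2. Of the rows, 40 lay above 0 (51% of all genes). In ADREX rats limma called 0 of 72, beside 0.125%, with 20 rows at an unadjusted p under 0.05 (17.8%). Both edgeR (0.383%) and DESeq2 (4.46%) called 0 rows. The median was 0.38 (0.06 over all genes), and 63 rows lay above 0 (56.6% of all genes). For the difference between both ozone effects limma called 0 rows, beside 0.109%, with 10 at an unadjusted p under 0.05 (12.9%). By edgeR 0 were called (0.188%) and by DESeq2 1, Rps29 (1.93%). The median difference was 0.28 (0.07 over all genes; 0.44 without ADREX air 67), with 49 rows above 0 (55.1% of all genes). Array weights called 1 row for the difference, Rpl32. These comparisons share libraries with those between surgeries. In SHAM rats 5 rows lay wholly higher under ozone (Rpl12, Rpl23a, Rpl29 and Rpl30 among them; 6.94% beside 5.14%) and 2 wholly lower (Rpl14 among them; 2.78% beside 5.93%). In ADREX rats 2 lay wholly higher (Rpl17 and Rplp0; 2.78% beside 6.98%) and 0 wholly lower (beside 2.98%).

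The most extreme rows of these comparisons are given as values, since limma called none of them. DESeq2 called Rps29 for ozone in SHAM and for the difference, and array weights called Rpl12 for ozone in SHAM. In SHAM rats the highest fitted differences between ozone and air were those of Rpl21 (1.92), Rpl12 (1.51) and Rpl31 (1.40). Rpl12, at the base of the stalk, was 34.2, 6.01, 11.3 and 10 normalized counts in air and 37.7, 39.1, 35.9 and 36.9 under ozone. SHAM air 1 lay just below the ozone libraries and the other 3 far below. The lowest were those of Rps29 (-5.01), Rps16 (-0.84) and Rpl22l1 (-0.80). In ADREX rats the highest were Rpl21 (2.08), Rpl37 (1.58) and Rplp2 (1.28), and the lowest Rpl35a (-0.31), Rpl27 (-0.29) and Rpl36al (-0.11). Rplp2 was 14.1, 5.30, 23.8 and 2.45 normalized counts in air and 17.2, 15.7, 25.2 and 34.5 under ozone, with overlapping groups. For the difference of ozone effects the highest were Rps29 (4.98), Rpl22l1 (1.73) and Rps16 (1.71), and the lowest Rpl12 (-1.45), Rpl28 (-1.44) and Rpl27 (-1.39). Rps16 was 329, 510, 143 and 411 normalized counts in SHAM air, 171, 149, 196 and 190 in SHAM ozone, 200, 176, 374 and 115 in ADREX air and 193, 289, 329 and 918 in ADREX ozone libraries. All 4 SHAM ozone libraries stayed within a narrow range, and ADREX ozone 84 stood alone at 918. The 3 highest values of Rps16 were in SHAM air 2 and 4 and ADREX ozone 84. The same libraries held the 3 highest values of Rpl22l1 and the 3 lowest of Rpl28, so these extremes rest on shared libraries.

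**Figure D5:**
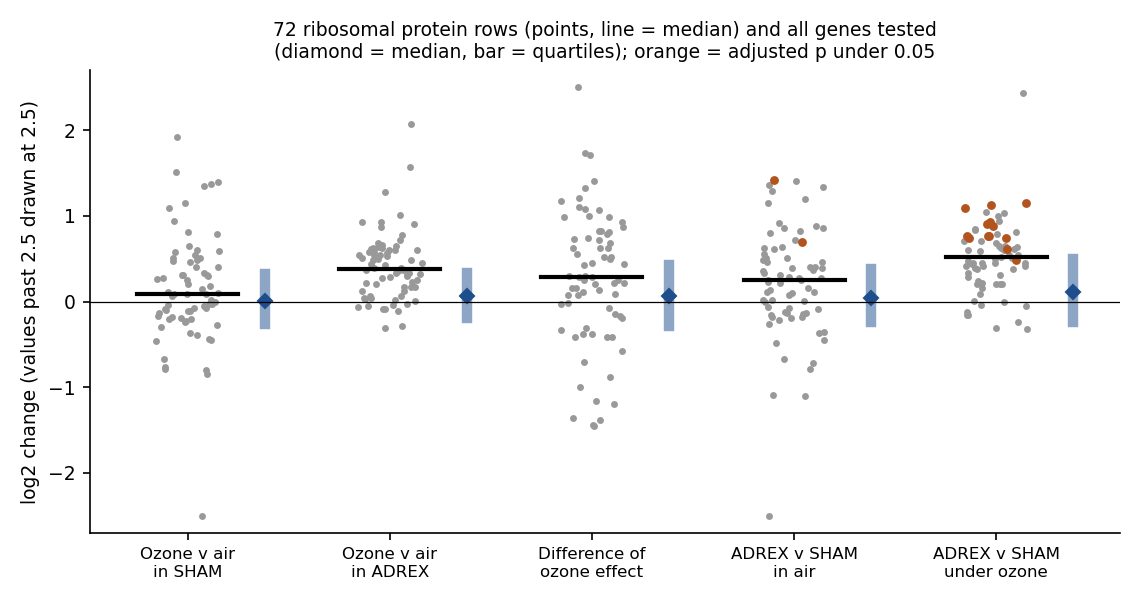
Fitted log2 change of each of the 72 rows in the 5 comparisons (points, orange where the limma adjusted p is under 0.05), with their median (line) and, beside it, the median and quartiles of all 12788 genes tested (diamond and bar); values past 2.5 in either direction are drawn at that limit. The members' medians run from 0.09 (ozone in SHAM) to 0.51 (ADREX against SHAM under ozone).

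Rps29 and Rpl21 had reads in some libraries and none in others of the same group. Rps29 was 0, 1524, 699 and 0 normalized counts in SHAM air, 0 in all 4 SHAM ozone libraries, 919 in ADREX air 65 and 0 in the other 3, and 845 in ADREX ozone 82 and 0 in the other 3. Rpl21 was 206 in SHAM ozone 18, 314 in ADREX ozone 82 and 0 in the other 14 libraries. A count of 0 allows up to 3 reads, which is 0.213 to 0.358 RPM here, so the gaps between libraries of one group were far past counting error. That limit covers counting error only, since the libraries carry no molecular identifiers to tell copies apart. The same pattern, a group with 1 library at 0 and a second with 100 reads or more, was found in 41 genes tested, including Gnb2l1, the older symbol of the ribosome scaffold Rack1. Gnb2l1 was 0 in 2 SHAM air, 3 SHAM ozone, 3 ADREX air and 1 ADREX ozone library, and its highest value was 3673. The fitted changes of Rps29 and Rpl21 depend on the added count and bound nothing. Without these rows the members' medians were unchanged to 2 decimals in all 5 comparisons.

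Among paralogs of core proteins, limma called Rpl5l1 alone over the 5 comparisons; with array weights Rpl22l1 was called too, lower in ADREX in air. Rpl22l1, the paralog of Rpl22, was 488, 1229, 331 and 1427 normalized counts in SHAM air, 396, 462, 511 and 327 in SHAM ozone, 244, 331, 564 and 305 in ADREX air and 398, 643, 409 and 1754 in ADREX ozone libraries. The libraries SHAM air 2 and 4 and ADREX ozone 84 were high, the same 3 that were highest in Rpl6-ps1, which was 1398, 2159 and 2677 there. They were also the 3 highest in Rps16 (510, 411 and 918) and in albumin (138699, 148630 and 156344 RPM). In Rpl28 they were the 3 lowest, at 40.8, 46.2 and 102. What these libraries share was not tested. Rpl36al was 489 ± 111, 588 ± 107, 577 ± 146 and 523 ± 65.4 (SD, n = 4) in SHAM air, SHAM ozone, ADREX air and ADREX ozone. Rpl7l1, whose parent Rpl7 had the firmest call, was 169 ± 81.8, 151 ± 33, 117 ± 44.8 and 146 ± 32, with a log2 difference of -0.04 between surgeries under ozone. Rps27l was 339 ± 121, 239 ± 49.5, 294 ± 78.9 and 369 ± 102, and its parent Rps27 was 237 ± 102, 313 ± 70.1, 298 ± 78.2 and 397 ± 208. Rpl10l stayed between 2.29 and 61.3 normalized counts and Rps4y2 between 3.67 and 33.1, near the minimum. Rpl3l and Rpl39l, known from muscle and testis, had means of 0.381 and 0.161. The 10 rows that are not core genes had a median change under ozone of 0.40, and the 62 core rows one of 0.51.

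Several other members of known function were not called by limma with its reported settings. Rps14, the gene lost in the human 5q- syndrome, was 424, 148, 328 and 102 normalized counts in SHAM air and 511, 500, 560 and 357 in ADREX air libraries. The groups overlapped through SHAM air 1 (log2 difference 1.15, limma adjusted p = 0.125), and array weights called the row in air and under ozone. Rpl38, needed for translation of certain Hox mRNAs in mouse embryos, was 28.2 ± 20.5, 38.4 ± 20.3, 30.4 ± 11 and 36.9 ± 24.3 (SD, n = 4) in the 4 groups in the order above. Rpl41, which encodes the shortest of these proteins, was 2196 ± 588, 1981 ± 155, 2079 ± 953 and 3299 ± 1860, with ADREX ozone 84 at 6071. Rps19bp1 was 124 ± 36, 99.9 ± 28.8, 111 ± 30.1 and 149 ± 31.3, and the neural covariate called it under ozone. The row with the most reads was Rpl10, at a mean of 5141, followed by Rpl4 (4123), Rpl5 (3182), Rpl3 (2928) and Rpl41. Those with the fewest were Rplp2, Rps4y2, Rpl10l, Rpl37 (19.7) and Rps12 (20.8).

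Spread and level differed widely among the rows. The median within-group SD on the log2 scale was 0.47 over members, from 0.12 (Rplp0) to 4.51 (Rps29), and 0.37 over all genes tested. Of the 31 rows with a mean of at least 400 normalized counts, 10 were called under ozone, and of the 41 below 400, 3 were. The medians of these sets were 0.61 and 0.48. Rows with and without the start element were both called: of the 21 rows that hold it at the annotated base 3 were called (Rpl10, Rpl14 and Rplp0), and of the 35 that do not, 8 were, with medians of 0.48 and 0.60. The other 2 called rows had no promoter entry. Over all genes tested, 6.03% were called higher in this comparison. Shares of all genes at matching levels or with the start element were not computed, so these splits are descriptions.

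Genes around the ribosome were read beside the members in the comparison under ozone, where 12.5% of all genes were called. Of 4 measured ribosomal components outside the naming rule, 1 rose, Rpsa, and 3 were not called, Fau and Gnb2l1 among them. Rpsa, a small subunit protein also known as a laminin receptor, was 628, 744, 705 and 724 normalized counts in SHAM ozone and 1239, 1560, 1166 and 1464 in ADREX ozone libraries (log2 change 0.95, SE 0.18, limma adjusted p = 0.00357). Of 11 pseudogene rows 3 were called, all higher: Rpl36a-ps2 (0.99), Rpl34-ps1 (0.86) and Rpl26-ps2 (0.65). Of 25 translation factors and other abundant mRNAs, whose start sites were not read, 6 rose and 0 fell, at a median of 0.37. The rises included Eef1b2 (1.13), Eef1a1 (0.86), which delivers aminoacyl-tRNA to the ribosome, Naca (1.05), which binds new chains as they emerge, and Eef1g (0.78). The other 2 were Tpt1 (0.63) and Eif3h (0.44), whose calls were lost in 12 and 17 of 27 alternatives. Eef1b2 was 519, 475, 474 and 552 against 1189, 1171, 869 and 1220, and the groups were far apart.

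Among genes that build ribosomes or regulate their mRNAs the share called was near or below that of all genes. Of 51 tested ribosome assembly factors 2 rose, Nob1 (0.57) and Pes1 (0.51), 2 fell, Heatr1 (-0.87) and Ddx21 (-0.84), and the median was -0.04. Heatr1, needed to transcribe and process ribosomal RNA, was 294, 270, 278 and 279 normalized counts in SHAM ozone and 159, 139, 163 and 153 in ADREX ozone libraries, with no overlap. Of 25 tested genes of mTORC1 and of ribosomal protein mRNA control 1 rose, Nprl2 (0.84), a component of a complex that restrains mTORC1 when amino acids are scarce. Mtor, the kinase itself, fell by 0.46, and Eif4ebp2, a repressor of cap-dependent translation, fell by 0.81. Larp1 was 3085, 2461, 2411 and 2867 against 1663, 973, 1640 and 2425 and was not called (log2 difference -0.76, limma adjusted p = 0.0536). The median of this list was -0.11. Of 73 mitochondrial ribosomal protein genes 4 rose, Mrpl14 (0.997), Mrpl48 (0.73), Mrpl50 (0.69) and Mrpl30 (0.54), 1 fell, Mrps31 (-0.82), and the median was 0.19. In the other 4 comparisons 1 gene of these lists was called, Mrps31, higher under ozone in SHAM rats (1.29, SE 0.24, limma adjusted p = 0.0152). The Nob1, Pes1, Mtor, Mrpl30 and Mrpl50 calls were each lost in at least 13 of 27 alternatives. The lists were chosen with earlier results of these data known, so their counts are descriptions.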

How the data were processed

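The submitters' processing notes name Partek, DESeq2 and rat build rn6. Not given in the sources used here are versions, the aligner, the annotation and the treatment of reads with several matches. The values are a signal: gene read counts that the authors scaled by 1 factor per library before they were deposited. Dividing by each column's step recovered whole reads for 100% of values within 0.01 of a whole number, and RPM were computed from these. The 72 members and the gene lists were chosen with earlier results of these data known.

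Values were tested as log2(value + 1) in the 12788 genes above the minimum mean described, by limma 3.58.1 (trend, two-sided) in R 4.3.3, with 4 group means over 16 libraries and 12 residual degrees of freedom. Fold changes of low genes are understated on this scale. P-values were Benjamini-Hochberg adjusted over all genes tested. The scripts were tested on simulated data. Members were named by rule: up to 10 of the largest called changes per comparison, or 3 extremes either way where none was called. Named too were the 5 highest and lowest rows, paralogs, stalk proteins, members of known function, rows with 0 reads, and up to 4 called genes per list; all 6 called translation factors are named. Some members are not reported here. Alternatives were a pseudocount of 10, no filter, a minimum of 50, TMM, median of ratios, array weights, a fit of the 2 groups alone, DESeq2 1.42.0 and edgeR 4.0.16 run on recovered reads, a neural covariate, the 3 neural-rich libraries left out, and each library left out.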

Additional observations from a re-analysis of the deposited data

Results flagged for a closer look

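Among 124 sets of 4 libraries (30 named rows and the summed level, in 4 groups), 8 held a library whose distance from the nearest other was most of the group's range. Chance gives about 1 in 20. Rps29 stood at 919 normalized counts in ADREX air 65 and at 845 in ADREX ozone 82, with 0 in the other 3 libraries of each group. Rpl21 stood at 206 in SHAM ozone 18 and at 314 in ADREX ozone 82, again with 0 in the other 3. Rpl4 was 8607 in ADREX ozone 82, where the others were 4711 to 5139, and Rpl27a was 959 in ADREX ozone 84, where the others were 833 to 852. Rpl10 was 6603 in ADREX air 68 (others 5200 to 5362), and Rpl10l was 41.7 in ADREX air 67 (others 3.67 to 9.53). ADREX ozone 82 accounted for 3 of the 8 and was the library richest in neural markers.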

How the results depend on the processing

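Members' medians kept their direction and moved by less than the spread between libraries under every alternative: 0.04 to 0.17 for ozone in SHAM, 0.31 to 0.50 for ozone in ADREX, 0.22 to 0.44 for the difference, 0.10 to 0.30 for ADREX against SHAM in air and 0.44 to 0.67 under ozone when each library was left out in turn, and 0.02 to 0.19, 0.29 to 0.48, 0.19 to 0.36, 0.17 to 0.33 and 0.41 to 0.64 under the other settings. TMM lowered the median of all genes under ozone from 0.11 to 0.01 and that of the members from 0.51 to 0.41, with 9 calls. Calls under ozone numbered 8 to 16 with each library left out, 20 with array weights and 3 when the 3 neural-rich libraries were left out; in every setting run all were higher in ADREX. Calls in air numbered 0 to 5 with each library left out, 1 with no filter, 8 with array weights (1 of them lower, Rpl22l1), 1 by edgeR, 6 by DESeq2 and 0 in the comparison alone, with the neural covariate or without the 3 libraries. For ozone in SHAM, array weights called 6 (Rps2, Rpl30, Rpl29, Rpl28, Rpl12, Rpl23a), DESeq2 called 1, Rps29, and leaving out libraries gave 0 to 1 (Rps2 without SHAM air 1). Array weights called 1 for ozone in ADREX (Rpl27a) and 1 for the difference (Rpl32), and DESeq2 called 1 for the difference, Rps29; leaving out libraries gave 0 for both. The cause of these shifts was not tested. The summed level under ozone, a log2 ratio of 0.72, was 0.63 to 0.80 with each library left out and 0.51 as a median over rows. No paired analysis was possible because no replicate number is shared between groups. Rows under about 50 normalized counts rest on few reads, and split or shared reads among gene copies limit every single row.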
